A study of Arabidopsis with 8 samples.

Results

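The genes described here are the 31 SAUR genes of 6 tandem arrays on chromosomes 1, 2, 3, 4 and 5 of Arabidopsis thaliana. They were chosen by locus identifier from their place in the genome, by a rule that takes no measured value. Of the 31, 29 were listed in at least 1 library, among 25397 genes listed in all, and SAUR2 (AT4G34780) and SAUR13 (AT4G38825) were listed in none.

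The 4 groups, each of 2 libraries, were root of the saur41/40/71/72 quadruple mutant, root of the Col-0 wild type, shoot part of the mutant and shoot part of Col-0, all from seedlings 5 days old. None of the genes disrupted in the mutant lies in these arrays. The kind of alleles, the number of lines and whether plants were pooled are not stated by any source used. Nothing states that the 2 replicates of a group were grown apart, so a p-value measures the spread between these samples only, which may be technical.

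SAUR (small auxin up RNA) genes encode small proteins and mostly lack introns, and many are among the transcripts that respond earliest to auxin. SAUR proteins of the SAUR19 type bind and inhibit phosphatases of the PP2C.D group. These phosphatases otherwise remove an activating phosphate from plasma membrane H+-ATPases, the pumps that acidify the cell wall before a cell expands. Members of the arrays are known from the elongating hypocotyl, opening cotyledons and growing stamen filaments, organs above the root.

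Levels are FPKM, read fragments scaled to transcript length and to the size of the library, so they can be compared between genes of unequal length. Each deposited table lists only genes above 0, and a gene missing from a table was set to 0 and is called not listed. Differences between groups were tested with limma on log2(FPKM + 1) over the 19985 genes with a mean of at least 1 FPKM in root or in shoot. P-values were adjusted over all of these genes, and a gene is said to have risen or fallen only at an adjusted p under 0.05. Of the 31 array genes 22 were tested, and 7 more were listed but too low.

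The libraries listed between 22684 and 22858 genes in root and between 21355 and 22477 in shoot. Relative depth was read from low genes, as the most common ratio of their FPKM in Col-0 replicate 1 of the tissue to that in the library. It spanned 0.874 to 1.08 of Col-0 replicate 1 in root and 0.891 to 1.22 of it in shoot. Only 5.37% to 16.3% of the low genes lay close to that ratio, so the depths are rough. The markers of each tissue were read in the libraries labelled with it. Sums over 7 root markers (Casparian strip and root hair genes) were 215 to 269 FPKM in root libraries and 2.23 to 6.10 FPKM in shoot libraries, where 1 or 2 of the 7 were at 0. Sums over 6 photosynthetic markers were 102 to 108 FPKM in root and 48007 to 61312 FPKM in shoot. Col-0 shoot replicate 1 stood apart: its median listed gene had 3.33 FPKM, against 5.02 FPKM in Col-0 shoot replicate 2 and 5.76 and 5.87 FPKM in the mutant shoots. In that library LHCB1.3 (AT1G29930), an abundant antenna gene, was at 0, against 16938 and 15861 FPKM in mutant shoots and 21258 FPKM in Col-0 shoot replicate 2, so a 0 in these tables can be a missing estimate.

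The 4 genes named in the mutant's genotype were still listed in it. SAUR72 (AT3G12830) had 16.9 and 16.3 FPKM in mutant roots against 23.4 and 31.6 FPKM in Col-0 roots, and 4.18 and 3.96 FPKM in mutant shoots against 9.41 and 7.57 FPKM in Col-0 shoots. SAUR71 (AT1G56150) had 0.471 and 0.580 FPKM in mutant roots against 0.173 and 0.986 FPKM in Col-0 roots, and 3.28 and 3.02 FPKM in mutant shoots against 7.91 and 5.22 FPKM in Col-0 shoots. For these 2 genes the shoot values of the genotypes did not overlap, while limma did not call either (log2 change -0.90, adjusted p = 0.0624 for SAUR72 and -0.84, adjusted p = 0.0929 for SAUR71). SAUR41 (AT1G16510) had 7.75 and 7.10 FPKM in mutant roots against 7.98 and 7.15 FPKM in Col-0 roots, and 1.09 and 0.845 FPKM in mutant shoots against 1.21 and 0.745 FPKM in Col-0 shoots. SAUR40 was listed at under 0.1 FPKM in 1 mutant root and both Col-0 shoot libraries and in no other. SAUR72 was the only gene of the 4 whose genotypes did not overlap in both tissues.

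The 6 arrays differed in where their genes were read. Genes of the arrays on chromosomes 1, 3 and 5 and of the distal array on chromosome 4 were at or near 0 in root and present in shoot. The proximal array on chromosome 4 held the genes read mostly in root, SAUR49, SAUR4 and SAUR5, and SAUR50, which was read in both. SAUR6 on chromosome 2 was read in both, higher in shoot. Summed over the arrays, the members had 65.5 and 64.6 FPKM in mutant roots, 72.9 and 77.0 FPKM in Col-0 roots, 133 and 111 FPKM in mutant shoots, and 188 and 143 FPKM in Col-0 shoots.

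**Figure D1:**
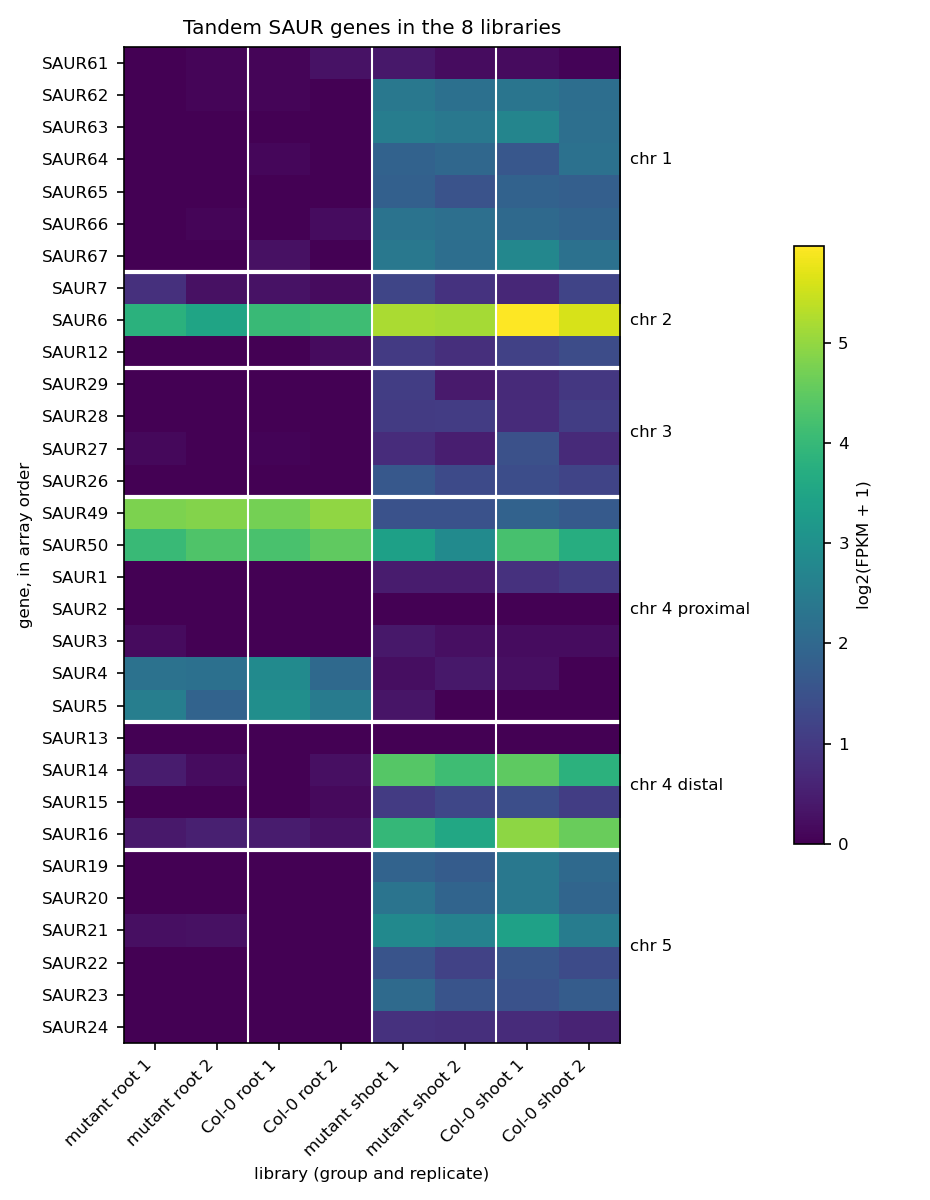
Colour shows log2(FPKM + 1) of each of the 31 genes (down, in the order of their locus numbers, array by array) in each of the 8 libraries (across, by group and replicate). The rows of chromosomes 1, 3 and 5 are dark in the 4 root libraries. SAUR49, SAUR50 and SAUR6 are the brightest rows in root, and SAUR4 and SAUR5 are brighter in root than in shoot. SAUR2 and SAUR13, listed in no library, are drawn at 0.

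Where the sum came from differed between the tissues. In root, the proximal array on chromosome 4 made up 78.5% of the mean sum and the chromosome 2 array 20.1%, which left the other 4 arrays 0.344%, 0.050%, 0.785% and 0.137% (chromosomes 1 and 3, distal chromosome 4, chromosome 5). In shoot, the chromosome 2 array made up 32.7%, the distal array on chromosome 4 27.0%, the chromosome 1 array 14.9%, the chromosome 5 array 12.3%, the proximal array on chromosome 4 10.2% and the chromosome 3 array 2.99%. The largest array in root was the fifth in shoot.

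By gene, 25 of the 29 listed members had a higher mean in shoot and 4 in root. In 23 members every shoot library lay above every root library, and 17 of these were among the 22 tested, against 15.6% of all tested genes. In 3 members, SAUR49, SAUR4 and SAUR5, every root library lay above every shoot library, against 69.4% of all tested genes. Shoot was thus the usual site of the array genes. There were 13 members listed in no root library, 11 of which were listed in shoot, while 27 members were listed in all 4 shoot libraries. In the mutant limma called 21 of 22 members between root and shoot, 4 higher in root and 17 lower, against a background of 76.4% of all tested genes (58.7% higher and 17.7% lower). In Col-0 it called 21 of 22, 3 higher and 18 lower, against 87.2% (72.1% higher and 15% lower). Of the tested members 17 passed the filter through shoot alone, 2 through root alone and 3 in both tissues, and a member that passed through 1 tissue alone had to differ, so these counts describe the members and test nothing.

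The shift of all genes sets the scale of these contrasts. The median root minus shoot change of all tested genes was 0.81 in the mutant and 1.23 in Col-0, and that of the tested members was -1.74 and -1.77. The 39 SAUR genes outside the arrays, a list that leaves out the mutated genes, followed the direction of most genes. Of 27 tested, 22 rose (81.5%) and 3 fell in mutant root against mutant shoot, beside 58.7% of all tested genes higher, and 20 rose (74.1%) and 3 fell in Col-0 root against Col-0 shoot, beside 72.1%. Their median change was 1.47 in each genotype. Many of them, such as SAUR37 and SAUR55, were under 1 FPKM in every shoot library and passed the filter through root alone. Such genes had to differ, so these counts too describe the genes and test nothing.

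**Figure D2:**
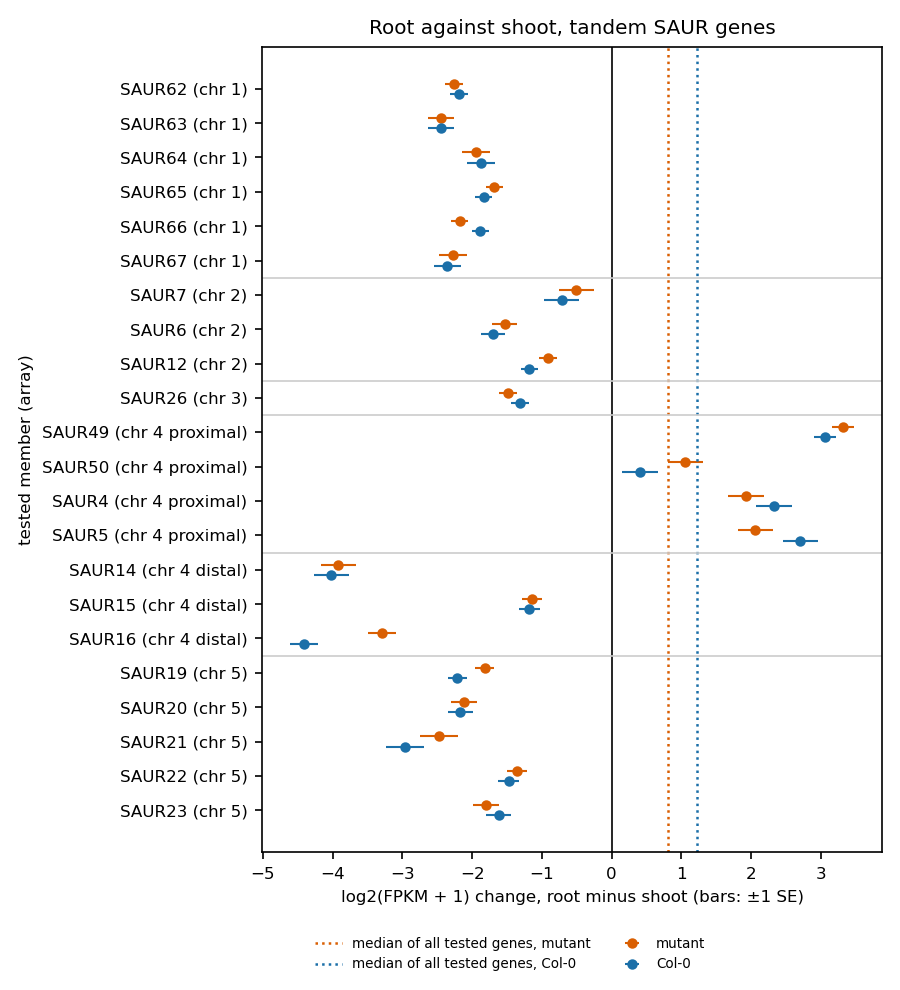
Points show the root minus shoot change in log2(FPKM + 1) of the 22 tested members in the mutant (orange) and in Col-0 (blue), bars show 1 standard error, and dotted lines mark the medians of all tested genes, 0.81 and 1.23. The 4 tested genes of the proximal array on chromosome 4 lie right of 0 in both genotypes and all 18 others lie left of it.

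The chromosome 1 array holds SAUR61 to SAUR67 within 22312 bp (chr1:10300878-10323189, TAIR10), with the first 5 genes 698 to 1171 bp apart and SAUR66 and SAUR67 beyond a gap of 13066 bp. These genes form the SAUR63 type, known for promoting elongation of hypocotyls and stamen filaments. Its summed level was 0.089 ± 0.126 FPKM in mutant roots, 0.392 ± 0.0425 FPKM in Col-0 roots, 21.2 ± 1.90 FPKM in mutant shoots and 21.5 ± 2.62 FPKM in Col-0 shoots (SD, n = 2 each). The mutant to Col-0 ratio of the sums in shoot was 0.987.

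SAUR63 (AT1G29440, chr1:10304507-10305108), the highest of the array in shoot, was listed in no root library, and had 4.73 and 4.20 FPKM in mutant shoots and 5.60 and 3.49 FPKM in Col-0 shoots. The 2 mutant values lay between the 2 Col-0 values. It took 21.1% of the array's level in shoot, so no single gene dominated. SAUR66 (AT1G29500, chr1:10321210-10321864) had 0 and 0.0594 FPKM in mutant roots, 0 and 0.146 FPKM in Col-0 roots, 3.79 and 3.54 FPKM in mutant shoots and 3.11 and 2.79 FPKM in Col-0 shoots. Its mutant shoots lay above its Col-0 shoots, by 0.24 on the log2 scale (SE 0.12, limma adjusted p = 0.176). That sign turned when the libraries were rescaled within a tissue, to -0.06 by median ratios and -0.27 by quantiles.

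SAUR67 (AT1G29510, chr1:10322574-10323189; SAUR68 in RefSeq) had 0 and 0 FPKM in mutant roots, 0.214 and 0 FPKM in Col-0 roots, 4.21 and 3.49 FPKM in mutant shoots and 5.77 and 3.69 FPKM in Col-0 shoots. The genotypes overlapped in both tissues. SAUR61 (AT1G29420, chr1:10300878-10301951) had the lowest level of the array in shoot and the highest in root, where all were near 0, with 0 and 0.0595 FPKM in mutant roots, 0.0620 and 0.216 FPKM in Col-0 roots, 0.301 and 0.144 FPKM in mutant shoots and 0.132 and 0.0486 FPKM in Col-0 shoots. It was too low to test, and the tables give it 1 merged locus with AT1G29418, so its level is uncertain. The 6 other genes of the array ran from 1.90 to 4.73 FPKM in mutant shoots and from 2.07 to 5.77 FPKM in Col-0 shoots, and all 6 were lower in root than in shoot in each genotype.

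The chromosome 2 array holds SAUR7, SAUR6 and SAUR12 within 6649 bp (chr2:9083165-9089813). Its summed level was 12.1 ± 2.45 FPKM in mutant roots, 16.1 ± 0.459 FPKM in Col-0 roots, 37.2 ± 1.65 FPKM in mutant shoots and 56.8 ± 9.05 FPKM in Col-0 shoots (SD, n = 2 each). SAUR6 alone took 97.4% of it in root and 95.4% in shoot.

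SAUR6 (AT2G21210, chr2:9085210-9085909) had 13.0 and 10.1 FPKM in mutant roots, 15.6 and 16.2 FPKM in Col-0 roots, 36.0 and 34.5 FPKM in mutant shoots and 61.4 and 47.5 FPKM in Col-0 shoots. Both mutant values lay below both Col-0 values in each tissue, and every root value lay below every shoot value. The mean in root was 0.306 times that in shoot, and SAUR6 fell in root against shoot, with a log2 change of -1.54 in the mutant and -1.71 in Col-0 (limma adjusted p = 0.000179 and 9.03e-05). Its neighbours were low in root. SAUR7 (AT2G21200), whose locus is merged with that of AT2G21195, had 0.783 and 0.203 FPKM in mutant roots, 0.216 and 0.125 FPKM in Col-0 roots, 1.36 and 0.830 FPKM in mutant shoots and 0.591 and 1.32 FPKM in Col-0 shoots. The ranges of its genotypes overlapped in both tissues. Its root minus shoot change was -0.51 in the mutant, where it was the only tested member not called, and -0.72 in Col-0.

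The chromosome 3 array, SAUR29, SAUR28, SAUR27 and SAUR26 within 6819 bp (chr3:976933-983751), had the lowest sum in shoot, 4.18 ± 1.1 FPKM in the mutant and 4.41 ± 0.511 FPKM in Col-0 (SD, n = 2 each). These are the SAUR26 type genes, known for natural variation in growth responses to temperature. SAUR26 (AT3G03850, chr3:983121-983751), the only tested member, was listed in no root library, and had 2.11 and 1.54 FPKM in mutant shoots and 1.68 and 1.33 FPKM in Col-0 shoots. The genotypes overlapped. SAUR27 (AT3G03840), the only gene of the array listed in any root library, had 0.0901 and 0 FPKM in mutant roots, 0.0492 and 0 FPKM in Col-0 roots, 0.684 and 0.424 FPKM in mutant shoots and 1.80 and 0.629 FPKM in Col-0 shoots. Its high value came from Col-0 shoot replicate 1, the library that stood apart.

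The proximal array on chromosome 4 holds SAUR49, SAUR50 and SAUR1 to SAUR5 within 22018 bp (chr4:16577404-16599421). Its summed level was 52.0 ± 1.89 FPKM in mutant roots, 58.0 ± 2.39 FPKM in Col-0 roots, 10.7 ± 2.51 FPKM in mutant shoots and 18.5 ± 4.16 FPKM in Col-0 shoots (SD, n = 2 each). The levels changed along the array. At one end SAUR49 and SAUR50, 3730 bp apart, were the highest, SAUR1 and SAUR3 in the middle stayed at or below 1.01 FPKM, and SAUR4 and SAUR5 at the other end were higher in root.

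SAUR49 (AT4G34750, chr4:16577404-16578452), known from leaf senescence, had 26.4 and 28.1 FPKM in mutant roots, 25.4 and 30.2 FPKM in Col-0 roots, 1.84 and 1.83 FPKM in mutant shoots and 2.68 and 2.24 FPKM in Col-0 shoots. Every root value was above every shoot value, and the root mean was 12.8 times the shoot mean. It rose in root against shoot by 3.32 on the log2(FPKM + 1) scale in the mutant (SE 0.16, limma adjusted p = 1.87e-06) and by 3.05 in Col-0 (SE 0.16, adjusted p = 2.69e-06). SAUR5 (AT4G34810, chr4:16599104-16599421) had 4.87 and 2.75 FPKM in mutant roots, 6.67 and 4.57 FPKM in Col-0 roots, 0.263 and 0 FPKM in mutant shoots and 0 and 0 FPKM in Col-0 shoots. The root values of the genotypes overlapped, and the 4 root values lay above the 4 shoot values. SAUR4 (AT4G34800, chr4:16596860-16597144) likewise had 3.10 to 6.24 FPKM over the 4 root libraries and 0 to 0.295 FPKM over the 4 shoot libraries. These 2 genes passed the filter through root alone, so no test between the tissues is given for them.

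SAUR50 (AT4G34760, chr4:16582183-16582879), known to be induced by light in opening cotyledons, had 15.5 and 18.9 FPKM in mutant roots, 18.0 and 21.8 FPKM in Col-0 roots, 9.49 and 6.22 FPKM in mutant shoots and 17.7 and 12.2 FPKM in Col-0 shoots. The tissues overlapped through Col-0 shoot replicate 1, and the mutant shoots were the lowest of the 4 groups. SAUR50 rose in mutant root against mutant shoot by 1.06 on the log2 scale (SE 0.26, limma adjusted p = 0.00759). In Col-0 the change was 0.41 (SE 0.26, adjusted p = 0.170), which lay below the median of all genes in that contrast, 1.23. Its Col-0 value turned to -0.75 (adjusted p = 0.0800) when all libraries were rescaled by median ratios, and under that scaling its mutant value was 0.34 (adjusted p = 0.402). Leaving out mutant root replicate 2 or mutant shoot replicate 2 also ended the call in the mutant, with 0.92 and 0.79.

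The distal array on chromosome 4, SAUR13 to SAUR16, spans 6083 bp from SAUR14 to SAUR16 (chr4:18124978-18131060). Its summed level was 0.653 ± 0.0769 FPKM in mutant roots, 0.446 ± 0.0970 FPKM in Col-0 roots, 32.2 ± 5.25 FPKM in mutant shoots and 45.3 ± 10.7 FPKM in Col-0 shoots (SD, n = 2 each). SAUR14 and SAUR16 are known, with SAUR50, from light-induced opening of cotyledons, and SAUR15 is SAUR-AC1, a classical auxin-induced transcript.

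SAUR16 (AT4G38860, chr4:18130268-18131060) had 0.335 and 0.447 FPKM in mutant roots, 0.378 and 0.216 FPKM in Col-0 roots, 14.7 and 10.9 FPKM in mutant shoots and 30.0 and 23.4 FPKM in Col-0 shoots. The genotypes overlapped in root, while both mutant shoots lay below both Col-0 shoots. Its root mean was 0.0174 times its shoot mean, and its root minus shoot change on the log2(FPKM + 1) scale was -3.30 in the mutant and -4.41 in Col-0. SAUR14 (AT4G38840, chr4:18124978-18125559) had 0.373 and 0.152 FPKM in mutant roots, 0 and 0.194 FPKM in Col-0 roots, 20.1 and 16.2 FPKM in mutant shoots and 21.3 and 13.2 FPKM in Col-0 shoots. The mutant shoots lay between the Col-0 shoots, and no root library came near a shoot library. Its root minus shoot change was -3.92 in the mutant and -4.02 in Col-0. Both genes passed the filter through shoot alone, so their changes are given with no test. SAUR15 (AT4G38850) between them stayed low, at 1.04 to 1.40 FPKM in mutant shoots and 1.12 to 1.69 FPKM in Col-0 shoots.

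The chromosome 5 array, SAUR19 to SAUR24 within 21216 bp (chr5:5962897-5984112), is the SAUR19 type whose proteins act on PP2C.D phosphatases. Its summed level was 0.192 ± 0.0035 FPKM in mutant roots, where SAUR21 alone was listed, and 16.5 ± 3.03 FPKM in mutant shoots against 18.9 ± 5.33 FPKM in Col-0 shoots (SD, n = 2 each); in Col-0 root none of the 6 was listed. SAUR21 (AT5G18030, chr5:5968435-5968938) had 0.190 and 0.195 FPKM in mutant roots, 0 and 0 FPKM in Col-0 roots, 6.06 and 5.28 FPKM in mutant shoots and 9.72 and 4.72 FPKM in Col-0 shoots. Its mutant shoots lay between the Col-0 shoots, of which replicate 1 was the high one. SAUR19 (AT5G18010, chr5:5962897-5963405) was listed in no root library, and had 2.74 and 2.35 FPKM in mutant shoots and 4.20 and 3.12 FPKM in Col-0 shoots. Its mutant shoots lay below its Col-0 shoots. The 5 tested genes were lower in root than in shoot in both genotypes, and SAUR24 was untested at 0.742 to 0.799 FPKM in mutant shoots and 0.508 to 0.656 FPKM in Col-0 shoots. Genes of an array are close in sequence, and the sources used here do not say how reads that match several copies were assigned, so levels of single genes are less certain than the array's sum.

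**Figure D3:**
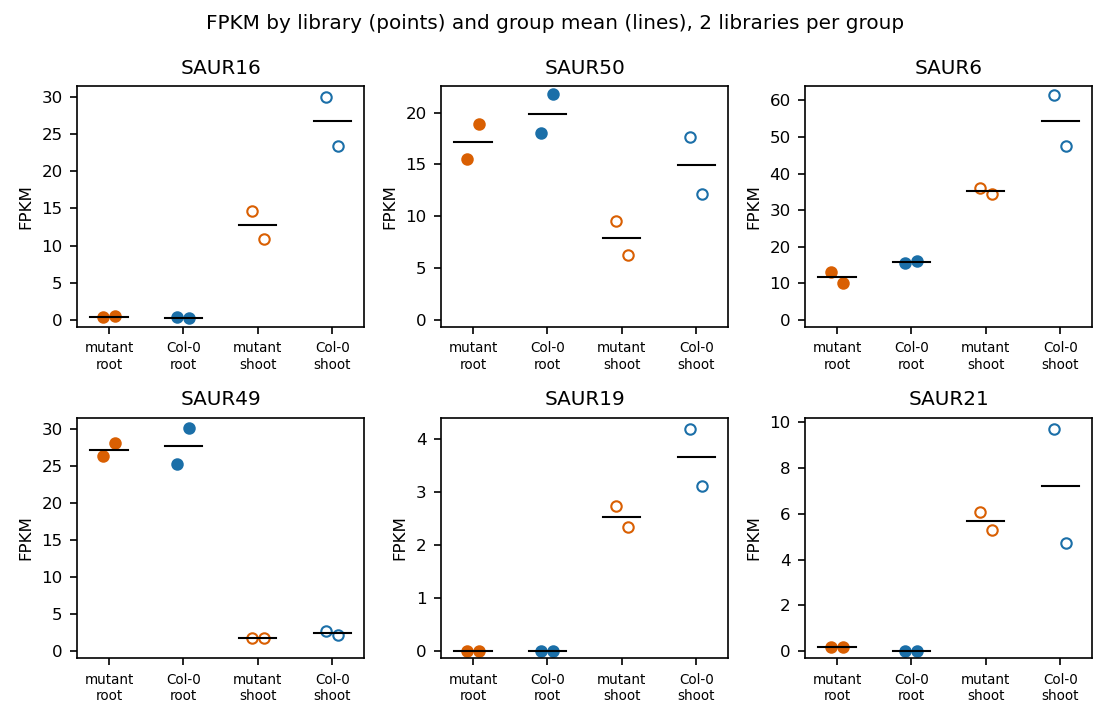
FPKM of SAUR16, SAUR50, SAUR6, SAUR49, SAUR19 and SAUR21 in each library (points) with the group mean (line), from mutant root to Col-0 shoot, each panel on its own axis from 0. The mutant shoots of SAUR16, SAUR50, SAUR6, SAUR49 and SAUR19 lie below the Col-0 shoots, while those of SAUR21 lie between them.

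In root, no array gene differed between mutant and Col-0 by limma's adjusted p. The count was 0 of 22 tested members, against a background of 2 genes or 0.01% of all tested genes. Of the 22, 17 passed the filter through shoot alone, and 5 members reached a mean of 1 FPKM in root in each genotype. Members near 0 in root had little room to be called there, so the count says little about them. At an unadjusted p under 0.05 there was 1 member, SAUR6, at -0.43 on the log2 scale (SE 0.17, adjusted p = 1.0), against 2.57% of all tested genes. Of the 22, 4 were higher in the mutant, 11 lower and 7 at 0 in every root library. Their median change was -0.002 and that of all tested genes -0.005. The lowest change was -0.48 (SE 0.26) for SAUR5 and the highest 0.32 (SE 0.25) for SAUR7.

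Both mutant root values lay below both Col-0 root values in SAUR6 and in the untested SAUR61, and above them in SAUR21. Over all tested genes 22.9% lay below and 20.5% above in this way, and over those whose locus span is within that of the members (273 to 1211 bp) 42.0% and 6.36%. In the other arrays the largest root changes were -0.14 (SE 0.20) for SAUR67, 0.20 (SE 0.25) for SAUR14 and 0.25 (SE 0.27) for SAUR21, each from levels under 0.4 FPKM in root.

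In shoot, SAUR16, SAUR50 and SAUR6 had the lowest changes among the tested array genes, and none of the 22 passed the threshold. These 3 and SAUR14 were the array genes with the highest levels in Col-0 shoot, and SAUR14 was at 0.10 (SE 0.25). SAUR16 was at 0.479 times its Col-0 level (log2 change -1.01, SE 0.20, limma adjusted p = 0.0584). SAUR50 was at 0.526 times (-0.85, SE 0.26, adjusted p = 0.0861) and SAUR6 at 0.648 times (-0.60, SE 0.17, adjusted p = 0.0832). SAUR16 and SAUR50 belong to the light-induced cotyledon genes named above, but so does SAUR14, whose mutant shoots lay between its Col-0 shoots. SAUR19 was at 0.695 times (-0.39, SE 0.14, adjusted p = 0.103), and SAUR12, a short neighbour of SAUR6, at 0.625 times (-0.36, SE 0.13, adjusted p = 0.102). Each of these 5 had an unadjusted p under 0.05 with a lower value in the mutant, against 3.52% of all tested genes, and no member had one with a higher value, against 35.2%. As shares, 22.7% of the members were lower and 0.0% higher in this way, beside 11.6% and 9.34% of tested genes in the members' span range, a background added after the values were seen. The count past the adjusted threshold was 0 of 22, against 1.02% of all tested genes.

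The sign of the change was the same for these 5 genes under every alternative they were tested in. SAUR16 ranged from -1.43 to -0.81 over 19 alternatives with adjusted p-values from 0.000384 to 0.344, of which 4 were under 0.05. SAUR19 was at -0.22 without Col-0 shoot replicate 1. SAUR50 ranged from -1.26 to -0.58 with adjusted p-values from 0.00378 to 0.344, and SAUR6 from -1.02 to -0.42 with 0.000636 to 0.344. The lowest p-values came with Col-0 shoot replicate 2 left out, which also raised the calls among all genes to 13202.

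**Figure D4:**
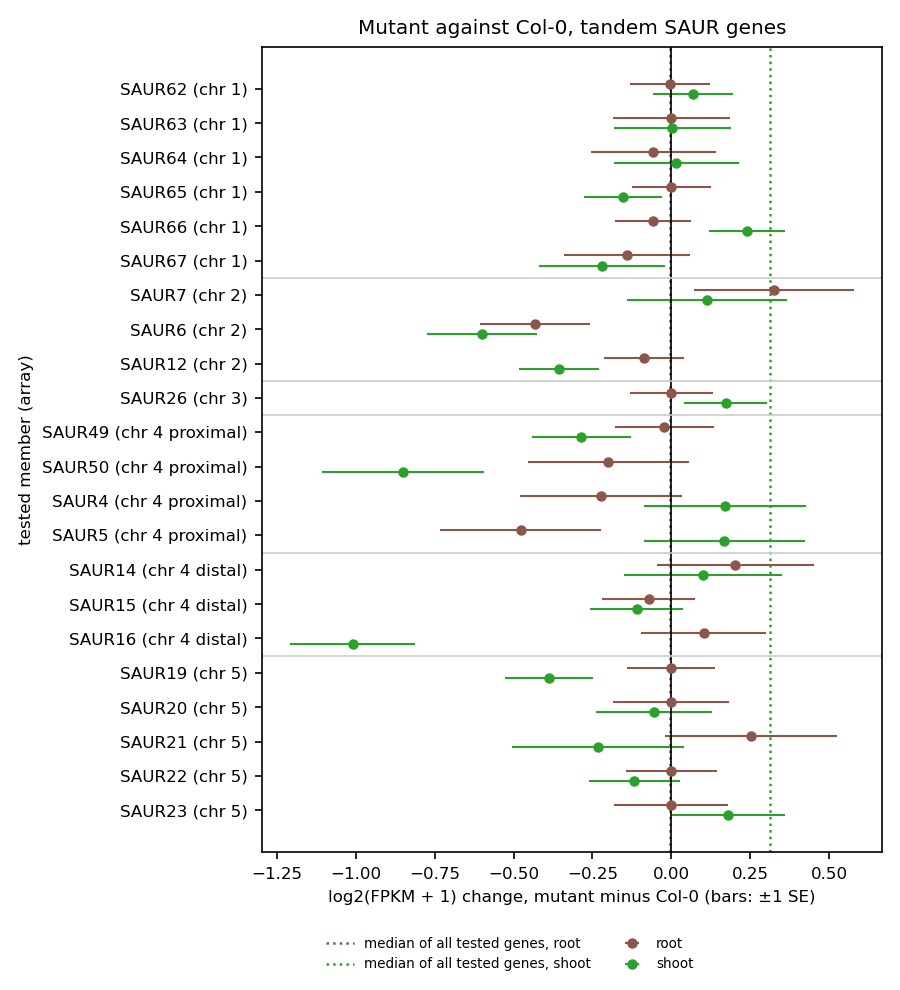
Points show the mutant minus Col-0 change in log2(FPKM + 1) of the 22 tested members in root (brown) and shoot (green), bars show 1 standard error, and dotted lines mark the medians of all tested genes, -0.005 in root and 0.31 in shoot. SAUR16, SAUR50 and SAUR6 lie farthest left in shoot at -1.01, -0.85 and -0.60, and most of chromosomes 1 and 5 lies within 0.25 of 0.

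The rest of the arrays scattered around 0 in shoot. Of the 22 tested members 10 were higher in the mutant and 12 lower, with a median of -0.08, against a median of 0.31 and 75.6% higher over all tested genes. SAUR4 and SAUR5, counted as higher, were at or near 0 in shoot. The sign of the members' median depended on the processing, and it was 0.05 without Col-0 shoot replicate 1 and 0.02 with the length trend removed, but -0.54 after quantile normalization. By array, the median was 0.01 on chromosome 1, -0.36 on chromosome 2, -0.11 in the distal and -0.06 in the proximal array of chromosome 4 and -0.12 on chromosome 5, and the single tested gene of chromosome 3 was at 0.17. SAUR66 had the highest value, 0.24, and SAUR23 of chromosome 5 had 0.18 (SE 0.18).

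The change of a gene in shoot followed its length in these tables, and the array genes are short. Members spanned 273 to 1211 bp with a median of 602 bp, against a median of 2403 bp over all tested genes. Spearman's rank correlation of the mutant minus Col-0 change with the locus span, a description across 19985 genes of the same libraries, was 0.53 in shoot and 0.40 in root. The 2688 tested genes in the members' span range had a median change of -0.04 in shoot, with 39.5% higher, and -0.13 in root. The part of length in the members' values was not tested beyond the alternative that removed its trend, under which SAUR16 was at -0.94 (adjusted p = 0.0272) and SAUR50 at -0.77 (adjusted p = 0.0647).

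**Figure D5:**
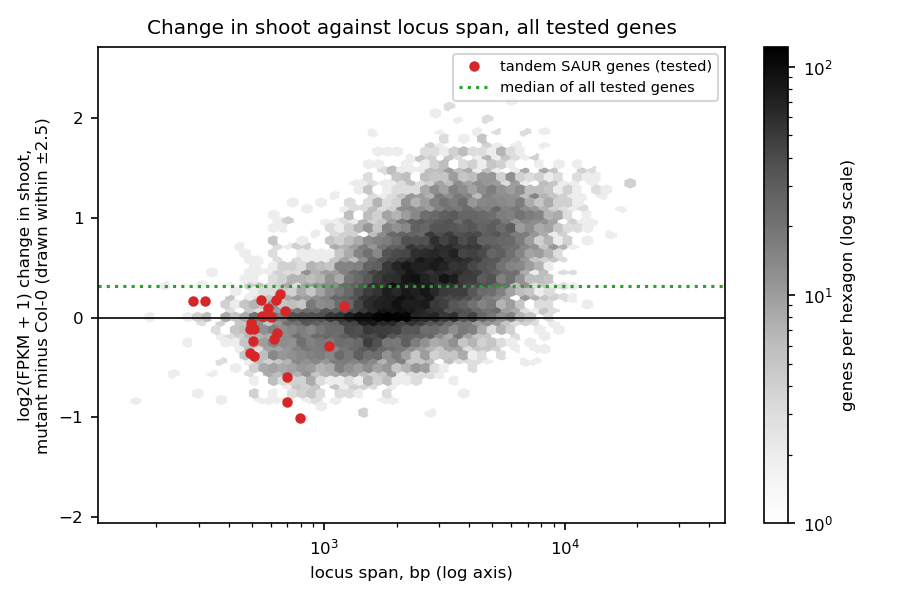
Grey hexagons count all tested genes by locus span in bp (log axis) and mutant minus Col-0 change in log2(FPKM + 1) in shoot, and red points are the 22 tested array genes. The members lie at the short end, where the cloud is centred near 0 and below the median of all genes (dotted, 0.31), and SAUR16, SAUR50 and SAUR6 are the 3 lowest red points.

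Both mutant shoot values lay below both Col-0 shoot values in 7 members, SAUR6, SAUR12, SAUR49, SAUR50, SAUR1, SAUR16 and SAUR19. Of these 6 were tested, 27.3% of the 22, against 9.48% of all tested genes and 24.8% of those in the members' span range, so the members' share was near that of other short genes. SAUR49, at 0.746 times its Col-0 level in shoot, was at -0.28 on the log2 scale (SE 0.16, limma adjusted p = 0.210), and SAUR1 (AT4G34770), too low to test, had 0.378 and 0.362 FPKM in mutant shoots and 0.804 and 1.01 FPKM in Col-0 shoots. The mutant pair was above the Col-0 pair in SAUR61, SAUR66, SAUR3 and SAUR24, of which only SAUR66 was tested, 4.55% of the 22, against 56.8% of all tested genes and 20% of those in the span range. Replicate 1 was above replicate 2 in 19 of the 22 tested members (86.4%) in mutant shoot and in 17 (77.3%) in Col-0 shoot, beside 46.0% and 27.6% of all tested genes and 51.1% and 64.7% of those in the span range. Fewer cells that use a gene and less RNA per cell cannot be told apart in libraries of whole root or shoot.

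The difference between the genotype effect in root and that in shoot passed the threshold in 0 of 22 members, against 0.0% of all tested genes by limma. At an unadjusted p under 0.05 there was 1 member, SAUR16 (4.55% of the 22), against 15.5% of all tested genes. In its direction this share was 1.2% of all tested genes and 2.53% of those in the members' span range. In the other direction it was 14.3% and 9.9%. The genotype change of SAUR16 was 1.11 higher in root than in shoot (SE 0.28, limma adjusted p = 0.269). SAUR16, SAUR19 and SAUR21 passed the filter through shoot alone and were at or near 0 in root. The log2(FPKM + 1) scale leaves them little room for a change in root, so this contrast cannot show that their genotype effects differ between the tissues. SAUR50 followed with 0.65 (SE 0.36, adjusted p = 0.355), and SAUR5 had -0.65 (SE 0.36, adjusted p = 0.355). SAUR5 passed the filter through root alone and was listed in only 1 shoot library, so it had little room for a change in shoot. For SAUR16 and SAUR50 the genotype effect in shoot is therefore not shown to differ from that in root. Without Col-0 shoot replicate 1 SAUR16 was called in this contrast, beside 10.4% of all tested genes. Without Col-0 shoot replicate 2 SAUR50, SAUR16, SAUR19 and SAUR21 were called, beside 57.8% of all tested genes.

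Genes linked to SAUR action were counted over lists chosen by function. None of them passed the threshold in either tissue, and 47.9% of all tested genes were higher in mutant root and 75.6% in mutant shoot. All 7 root markers were higher in mutant root (median change 0.18). In mutant shoot 5 of the 6 photosynthetic markers were lower (median -0.49). The other was LHCB1.3, which was at 0 in Col-0 shoot replicate 1. Without that library 0 of the photosynthetic markers were higher and their median was -0.25. The change of a gene also followed its length in both tissues, as given above. The part of the markers and of length in the lists' values was not tested. Of the 9 PP2C.D phosphatases, all tested, 8 were higher in mutant shoot (median change 0.50). They were led by PP2C6 (AT3G55050) at 1.11 (limma adjusted p = 0.0575) and AT5G06750 at 1.06 (adjusted p = 0.0738), while AT5G02760 was lower at -0.71. In mutant root 8 were lower (median -0.04) and AT5G02760 was higher at 0.32. Of the 11 plasma membrane H+-ATPases 8 were tested and all 8 were higher in the mutant in both tissues, with a median change of 0.28 in root and 0.47 in shoot. AHA5 and AHA8, at 1.05 (adjusted p = 0.0923) and 0.97 (adjusted p = 0.0843), had the largest changes in shoot, and AHA7 and AHA8, at 0.43 and 0.35 (adjusted p = 1.0 each), the largest in root. AHA5 had 4.40 and 4.33 FPKM in mutant shoots against 0.743 and 2.86 FPKM in Col-0 shoots, and AHA8 had 1.97 and 2.31 FPKM in the mutant shoots against 0.179 and 1.17 FPKM in those of Col-0. In Col-0 the low value of each was that of replicate 1, the library that stood apart. Without that library the shoot changes were 0.47 for AHA5 and 0.53 for AHA8, and the H+-ATPases had a median of 0.07 with 6 of 8 higher. The PP2C.D phosphatases then had a median of 0.25 with 7 of 9 higher, where AT5G06750 was at 0.62 and AT5G02760 at -0.93. The median of all tested genes was then 0.17.

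The Aux/IAA genes encode repressors of auxin-responsive transcription, several of which are themselves auxin-induced. Of 29, 22 were tested, and 19 were higher in mutant shoot with a median change of 0.37, near the 0.31 of all genes. IAA2 had 1.46 (SE 0.27, adjusted p = 0.0539) and IAA18 1.15 (SE 0.19, adjusted p = 0.0509). Without Col-0 shoot replicate 1 the list's median was 0.21. In root 7 were higher and 15 lower, with a median of -0.05, and IAA13 and IAA3 were lowest at -0.33 and -0.32. Of the 27 tested SAUR genes outside the arrays, 8 were higher and 18 lower in the mutant in each tissue, with a median of -0.11 in root and -0.07 in shoot. Without Col-0 shoot replicate 1 the shoot median was 0 and 13 were higher. Their largest changes were -0.66 for SAUR58 and -0.49 for SAUR33 in root, and -0.56 for SAUR51 and 0.55 for SAUR35 in shoot; the value of SAUR51 was -0.35 without Col-0 shoot replicate 1.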

How the data were processed

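RNA of root and shoot part was sequenced on an Illumina HiSeq, per the labels' protocols, and the build is TAIR10, per the submitters' processing notes. The authors deposited 1 table of FPKM values per library, and no source used here names the program, the strand setting or the number of reads, so read counts were not used. Coordinates are those of the tables, with 1 added to the start. Symbols come from the tables and from the RefSeq gene table of TAIR10.1, which held all 31 members.

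Log2(FPKM + 1) entered a linear model of the 4 groups (limma 3.58.1, R 4.3.3; 4 residual degrees of freedom) with trended and robust moderation and Benjamini-Hochberg adjustment over 19985 genes. The pseudocount is 1, so a log2 change understates the change of low genes. No further scaling was applied. The fit was tested on simulated data.

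Members and lists (39 other SAUR genes, 9 PP2C.D, 11 H+-ATPase, 29 Aux/IAA, 4 mutated genes, 7 root and 6 photosynthetic markers) were chosen with earlier results of these data known, although the members' rule uses genome position alone. All members are accounted for. Values per library are given for the highest member of each array in root and in shoot and for those with the largest change between genotypes or tissues. From the other lists up to 2 of the largest changes per genotype contrast are named. Alternatives changed the pseudocount, filter, scaling, moderation, length trend, replicate block and libraries used.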

Additional observations from a re-analysis of the deposited data

Results flagged for a closer look

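SAUR61 (AT1G29420) had every mutant library below every Col-0 library in root and every mutant library above every Col-0 library in shoot. The mean in root was 0.109 FPKM lower in the mutant (a difference of -0.109 FPKM). Its highest value was 0.301 FPKM and it shares a merged locus with AT1G29418, so it was below the filter, and the difference between the tissues was not tested.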

How the results depend on the processing

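The count of members called between genotypes in root, where most members were near 0, was 0 under all 19 alternatives. In shoot the count of 0 became 2 after quantile normalization (SAUR12 and SAUR16), 1 with the length trend removed (SAUR16), and ran from 0 to 7 when each library was left out in turn, with 2 without Col-0 shoot replicate 1 (SAUR6 and SAUR16) and 7 without Col-0 shoot replicate 2 (SAUR67, SAUR6, SAUR49, SAUR50, SAUR16, SAUR19 and SAUR21). All calls were lower in the mutant, and the calls among all genes were then 463, 1017, 5210 and 13202, against 204. For the difference between tissues the count ran from 0 to 4 over the left-out libraries, the 4 beside 11547 of all genes (57.8%). Between tissues the count of 21 became 6 in the mutant and 5 in Col-0 of 6 tested at a filter of 5 FPKM, since fewer genes were tested, and ran from 20 to 22 over the left-out libraries. With the replicate block the counts were 0 in root, 0 in shoot, 0 for the difference and 21 in each tissue contrast. The replicate numbers share only a number: deviations of same-numbered libraries correlated at -0.11 to 0.15 across genes. Signs turned, counted only for changes that exceed 1 SE with all libraries and no rescaling, for the shoot change of SAUR66 (-0.0591, -0.27, -0.0903), SAUR26 (-0.0749, -0.28, -0.107) and SAUR23 (-0.0836, -0.31, -0.119) under median-ratio scaling within a tissue, quantiles and median ratios over all libraries, for SAUR23 also without mutant shoot replicate 1 (-0.0825 to 0.44 over the left-out libraries) and for SAUR67 without Col-0 shoot replicate 1 (-0.49 to 0.0442). The difference between tissues turned for SAUR66 (0.0022, 0.21, 0.0502) under the same 3 scalings and for SAUR4 without Col-0 root replicate 1 (-0.80 to 0.0161), and root minus shoot in Col-0 turned for SAUR50 (-0.75). The cause was not tested. Where only 1 library of a group was left, it was assumed to vary like the other groups. The number of reads is unknown, so whether a gene not listed was absent or below detection cannot be told apart.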
